A study of Mus musculus with 12 samples.

Results

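Nr3c1, the gene of the glucocorticoid receptor, and 9 genes known as its targets in liver cells were followed across 4 siRNA groups of primary mouse hepatocytes. The target genes were Fkbp5, Tsc22d3, Per1, Klf9, Klf15, Tat, Mt1, Mt2 and Sgk1. The 10 genes were taken by symbol, without any threshold, from the 55385 gene identifiers of the files, and all 10 were among the 15090 genes that passed the filter on low counts. Hepatocytes, the main metabolic cells of the liver, came from 3 mice, and cells of each mouse were given each of the 4 siRNA treatments for 48 h, which makes 12 libraries and 3 per group. The groups were control siRNA (siCon), siRNA against Hnf4a (siHnf4a), siRNA against Cebpa (siCebpa) and both siRNAs together (labelled siHnf4a siCebpa, here called the double knockdown). HNF4A is a nuclear receptor and C/EBPα a leucine zipper factor, and both are liver-enriched regulators of transcription. All 4 groups were kept in Williams' E medium with 100 nM dexamethasone, a synthetic glucocorticoid, and with 10% serum, 2 mM glutamine, 1% antibiotics and a 5% insulin, transferrin and selenium supplement. No group without dexamethasone was analysed here, so the values below compare levels under constant hormone and do not measure induction by it. Strain, sex and age of the mice were not stated in the labels.

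The glucocorticoid receptor waits in the cytoplasm, bound to heat shock protein chaperones, until a steroid such as cortisol, corticosterone or dexamethasone enters the cell. It then moves into the nucleus and binds DNA, often as a pair of receptors on inverted half-sites, and raises or lowers transcription of nearby genes. In liver it is known for the response to fasting and stress: amino acid breakdown, glucose production, feedback inhibitors of hormone action, clock genes and the metal-binding metallothioneins are among its classical targets.

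The promoters of 4 genes are shown because they hold the letters of known binding motifs. These are the inner part of a glucocorticoid response element in Mt1 and Sgk1, cores of metal response elements in both metallothionein genes, and E-boxes in Klf15. Whether the letters in Mt1 act as a glucocorticoid response element was not tested. Each run gives 250 bases before to 50 bases from the annotated start, from RefSeq with build GRCm38.p6, 5′ to 3′ on the gene's strand, which is the plus strand for all 4. Capitals mark every match to one of 7 motifs: ACANNNTGT (the inner part of a glucocorticoid response element), AGAACA (its half-site), TGCACNC and TGCGCNC (the core of a metal response element), TTGCNNAA (a core bound by C/EBP factors), CAAAGTCCA (a core bound by HNF4A) and CACGTG (an E-box, bound by clock factors among others), each searched on both strands. Matches that overlap each other appear as 1 stretch of capitals. The windows are chr8:94178839-94179138 for Mt1, chr8:94172368-94172667 for Mt2, chr10:21993640-21993939 for Sgk1, which is 1 of 6 annotated windows of that gene, and chr6:90462326-90462625 for Klf15.
Mt1: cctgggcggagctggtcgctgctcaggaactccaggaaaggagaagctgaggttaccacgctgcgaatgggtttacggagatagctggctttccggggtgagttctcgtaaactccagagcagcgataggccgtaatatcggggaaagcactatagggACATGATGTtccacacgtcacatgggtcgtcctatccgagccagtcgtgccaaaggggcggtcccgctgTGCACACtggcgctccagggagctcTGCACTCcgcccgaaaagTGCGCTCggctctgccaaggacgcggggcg
Mt2: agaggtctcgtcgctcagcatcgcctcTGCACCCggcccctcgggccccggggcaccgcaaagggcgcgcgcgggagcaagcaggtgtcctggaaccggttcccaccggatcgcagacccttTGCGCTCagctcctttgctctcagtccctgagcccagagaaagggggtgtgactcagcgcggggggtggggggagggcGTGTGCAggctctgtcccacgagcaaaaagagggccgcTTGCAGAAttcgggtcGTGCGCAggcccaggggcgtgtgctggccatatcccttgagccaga
Sgk1: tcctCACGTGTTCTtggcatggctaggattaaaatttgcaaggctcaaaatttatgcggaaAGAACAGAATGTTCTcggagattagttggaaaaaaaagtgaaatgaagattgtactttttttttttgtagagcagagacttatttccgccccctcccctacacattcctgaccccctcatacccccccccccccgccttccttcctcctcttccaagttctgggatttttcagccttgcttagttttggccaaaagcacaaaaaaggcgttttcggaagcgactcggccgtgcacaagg
Klf15: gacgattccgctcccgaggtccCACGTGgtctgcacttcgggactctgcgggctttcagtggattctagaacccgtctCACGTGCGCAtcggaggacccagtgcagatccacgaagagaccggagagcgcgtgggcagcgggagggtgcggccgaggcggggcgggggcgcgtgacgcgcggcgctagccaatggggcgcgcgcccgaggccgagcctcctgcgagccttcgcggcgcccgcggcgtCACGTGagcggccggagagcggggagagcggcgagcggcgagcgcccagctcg

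Of the 10 genes, 9 had 17 promoter windows in the RefSeq table, and the table was searched over 32817 distinct windows of the same length. ACANNNTGT was in 3 of the 17 windows, from 2 of the 9 genes, Mt1 and Sgk1, and in 6.85% of all windows. In Mt1 it lay 92 to 84 bases before the start. In the Sgk1 window shown it lay at -186 to -178, inside 2 facing half-sites, AGAACA and TGTTCT, 3 bases apart. That full pair, searched for only after the shorter matches had been seen, was in 3 of the 32817 windows (0.00914%). The half-site AGAACA on its own was in 19.0% of all windows and in 4 of the 17, from 2 genes, Sgk1 and Tsc22d3. The metal response core TGCACNC was found in 2 of the 17 windows (Mt1 and Mt2) and in 12.6% of all windows. TGCGCNC was in 5 of the 17, from 5 genes (Mt1, Mt2, Klf15, Per1 and Sgk1), and in 15.4% of all windows. Klf15 held 3 E-boxes, with the last at -3 to 2 across the start. An E-box was also found in Per1, Fkbp5 and Sgk1, which makes 4 of the 17 windows, and in 7.15% of all windows. The C/EBP core was in 3 of the 17 (Mt2, Per1 and Sgk1) and in 10.8% of all windows. CAAAGTCCA was in none of the 9 genes' windows and in 0.475% of all windows. No letters of these 7 motifs were found in the windows of Klf9 and Tat. A match is a string of letters, and binding was not measured.

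**Figure D1:**
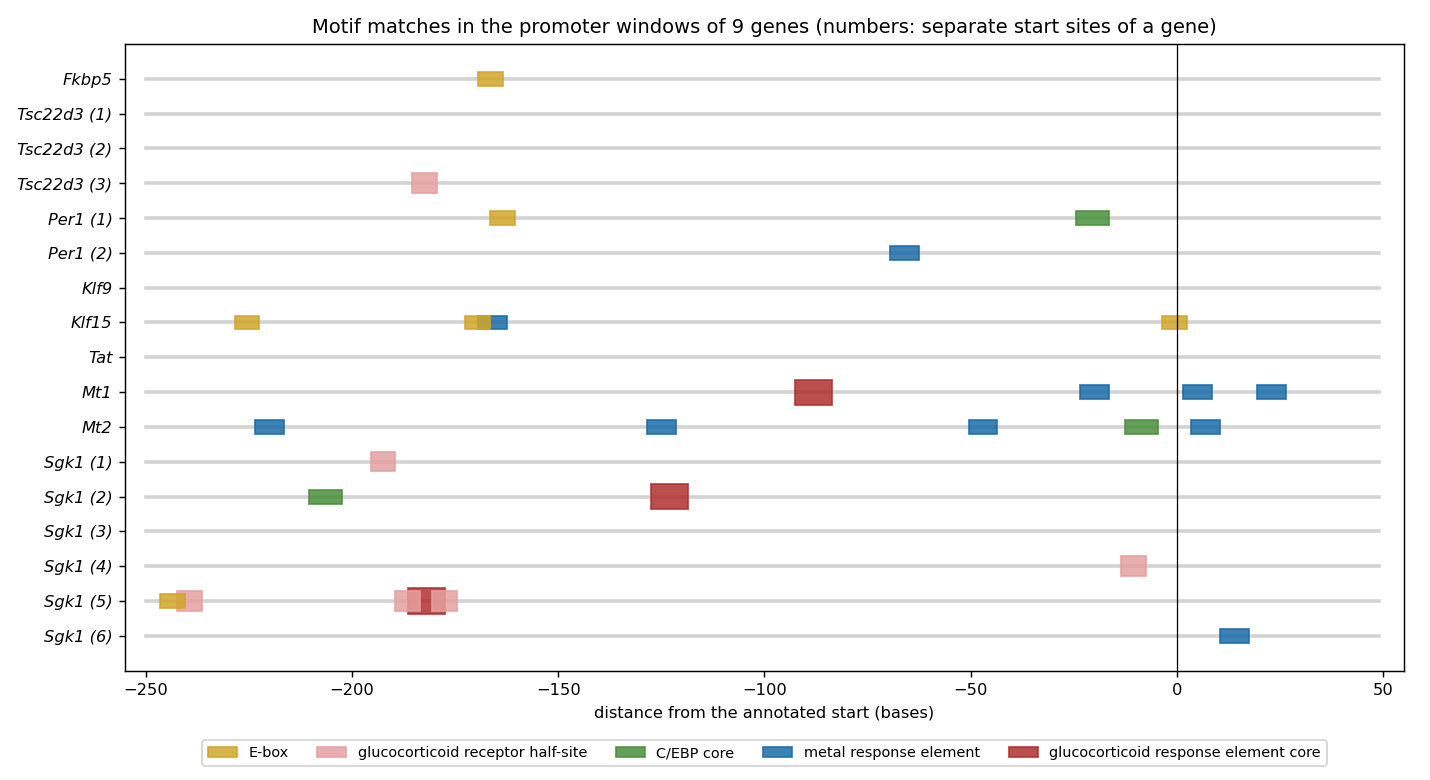
Matches to the 7 motifs in the 17 promoter windows of 9 genes, drawn by distance in bases from the annotated start (vertical line); colours give the motif, the 2 metal response cores share 1 colour, and numbers in brackets tell separate start sites of a gene apart. Both metallothionein windows hold several metal response cores, and the glucocorticoid response element core appears in the Mt1 window and in windows 2 and 5 of Sgk1.

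The libraries held 22453445 to 25008195 estimated counts, and the knocked-down genes followed the labels. Hnf4a stood at 144 to 297 CPM (counts scaled to equal library totals) in siCon and at 33.5 to 59.2 CPM in the 6 libraries given its siRNA. Cebpa stood at 179 to 211 CPM in siCon, at 26.1 to 33.7 CPM in siCebpa and at 84.5 to 109 CPM in the double knockdown. All 10 hepatocyte markers were detected, and their summed level was 32164 to 36963 CPM in siCon, 18575 to 22187 CPM in siHnf4a, 28199.8 to 35162 CPM in siCebpa and 12721 to 16651 CPM in the double knockdown. In siHnf4a 3 of the 10 fell (Apob, Serpina1a and Trf) and 1, Fgb, rose, with a median log2 fold change of -0.19. In the double knockdown 4 fell (Apoa1, Apob, Serpina1a and Trf) and 0 rose (median -1.01). In siCebpa 0 passed in edgeR (median -0.06). There 2 had an unadjusted edgeR p under 0.05, DESeq2 called 0 and the block fit called 2 lower. Block counts were 2 higher and 4 lower in siHnf4a, and 0 and 7 in the double knockdown. Kupffer cell and macrophage markers, of which 11 of 13 passed the filter and none was at 0, summed to 474 to 928 CPM in siCon, 262 to 686 CPM in siHnf4a, 307 to 955 CPM in siCebpa and 263 to 593 CPM in the double knockdown. Their median log2 fold changes against siCon were -1.01, -1.20 and -1.24, with 1, 0 and 1 of them past the test (the called gene is Cd14) and 4, 3 and 6 with the mouse as a block; in siCebpa 1 had an unadjusted p under 0.05 in edgeR and DESeq2 called 0. The Cd14 call in siHnf4a was lost without siCon of mouse 1 or siHnf4a of mouse 2 or 3. In the double knockdown it was lost without siCon of mouse 1 or the double knockdown of mouse 2 or 3. Summed markers of endothelial cells (58.3 to 138 CPM), stellate cells (61.2 to 143 CPM), cholangiocytes (32.2 to 269 CPM) and lymphocytes or neutrophils (0.257 to 1.11 CPM) were lower than the Kupffer cell sum of the same library. These sums cover unlike numbers of genes and are not corrected for length. Of 4 tested cholangiocyte markers 2 (Krt19 and Sox9) fell in siHnf4a and 2 in the double knockdown, with medians of -1.54 and -1.90, and 4 of 4 fell in each with the block. The siHnf4a count was 0 without siCon or without siHnf4a of mouse 3. In siCebpa 0 of these 4 passed in edgeR (median -0.91), where 2 had an unadjusted p under 0.05, DESeq2 called 2 and the block fit called 3 lower. Whether these other cells contribute to any difference below was not tested. In such bulk RNA, fewer cells of a type and less RNA per cell cannot be told apart.

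On the length-corrected scale of TPM, which allows levels of separate genes to be compared, the metallothioneins were the most abundant of the 10 genes in siCon, with 2218 ± 694 TPM for Mt2 and 1206 ± 398 TPM for Mt1 (mean ± SD, n = 3). Sgk1 had 41.3 ± 18.7 TPM. Between 18.3 and 27.0 TPM lay Tsc22d3, Fkbp5, Per1, Klf9 and Nr3c1, in falling order of their means. Tat had 12.3 ± 6.81 TPM and Klf15 6.61 ± 0.196 TPM, the lowest of the 10. All further values are CPM, scaled by the TMM method, and compare 1 gene between libraries.

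**Figure D2:**
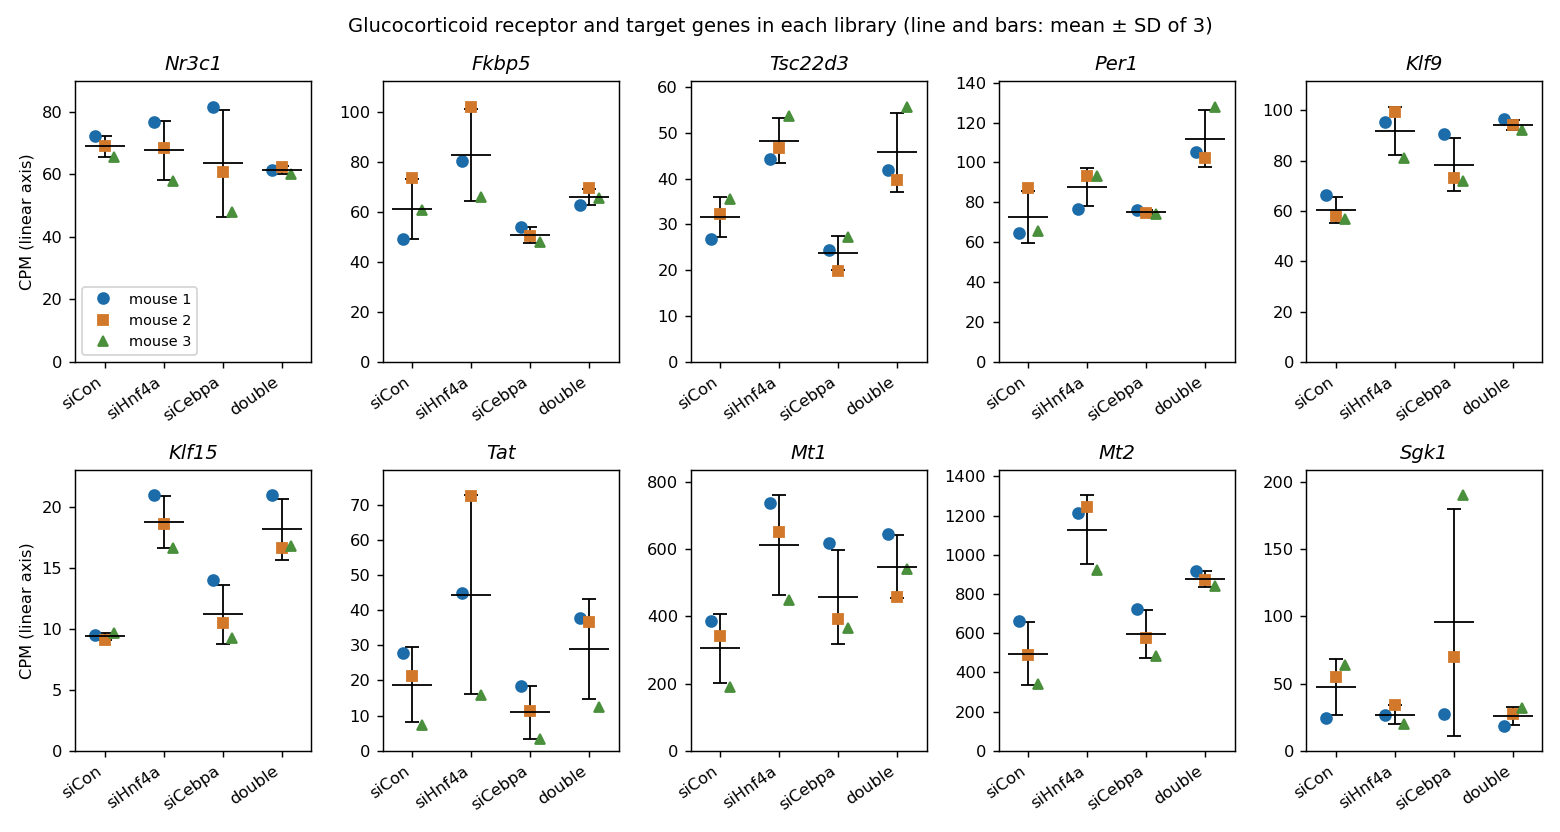
CPM of each of the 10 genes in the 12 libraries, 1 panel per gene on linear axes that start at 0; symbols tell the mice apart, and the line and bars are the mean ± SD of 3 libraries. The siHnf4a and double knockdown libraries of Klf15, Klf9, Tsc22d3, Mt1 and Mt2 lie above all siCon libraries, and Tat and Sgk1 spread widely between mice within a group.

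The receptor gene itself, Nr3c1 (ENSMUSG00000024431.15, chromosome 18, 39410545 to 39519421, minus strand, in GENCODE M21 on GRCm38), did not pass the test in any comparison. Its level was 72.3, 69.1 and 65.6 CPM in siCon of mice 1, 2 and 3 and 76.7, 68.5 and 57.8 CPM in siHnf4a. In siCebpa it was 81.7, 60.9 and 47.9 CPM, and in the double knockdown 61.5, 62.5 and 60.2 CPM. The double knockdown libraries lay just below all 3 siCon libraries, while the other groups overlapped with siCon. The log2 fold change against siCon was -0.03 ± 0.16 in siHnf4a (SE, adjusted p = 0.935 by the quasi-likelihood test of edgeR, Benjamini-Hochberg method), -0.12 ± 0.16 in siCebpa (adjusted p = 0.741) and -0.17 ± 0.16 in the double knockdown (adjusted p = 0.548). The 95% intervals ran from -0.39 to 0.33, from -0.48 to 0.24 and from -0.53 to 0.19, so changes of 1 log2 unit in receptor mRNA lie outside them. From the highest to the lowest group mean the order was siCon, siHnf4a, siCebpa and double knockdown, and no neighbours in it differed past the test.

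Against siCon, 5 of the 10 genes rose in siHnf4a and none fell, with 14.5% of all tested genes called in that comparison. Tsc22d3, Klf9, Klf15, Mt1 and Mt2 were the 5. With the mouse as a block the count was 7 higher and 0 lower, with Fkbp5 and Tat added, against 30.0% of all genes. In siCebpa 0 of the 10 passed the edgeR test, with 4.67% of all genes called; 2 had an unadjusted p under 0.05, DESeq2 called 1 (Klf9), and the block fit called 2 higher (Klf9, Mt1) and 2 lower (Tsc22d3, Tat), against 16.8% of all genes. In the double knockdown 5 rose and none fell, with 14.0% of all genes called: Tsc22d3, Per1, Klf9, Klf15 and Mt2. The block fit of the double knockdown gave 7 higher and 0 lower, with Mt1 and Tat added, against 29.5%. The median log2 fold change of the 10 genes stood at 0.61 (siHnf4a), 0.15 (siCebpa) and 0.62 (double knockdown), and the median of all tested genes was 0.00 in each. All 3 comparisons share the siCon libraries. The count in siHnf4a was 3 without siCon or without siHnf4a of mouse 2, where calls over all genes fell from 2193 to 1120 and 1137. The count in the double knockdown was 2 without siCon of mouse 3, and 3 without siCon or siHnf4a of mouse 2 or without any 1 double knockdown library. In these double knockdown fits, in the same order, calls over all genes fell from 2117 to 1221, 1210, 1766, 1662, 1338 and 1423. Other markers moved with these groups too: the hepatocyte marker sum, Cd14 and 2 of the 4 tested cholangiocyte markers, Krt19 and Sox9, were also lower in siHnf4a and in the double knockdown, and their part in the calls was not tested. Single hepatocyte markers did not all move this way, since Fgb rose in siHnf4a, and the Cd14 calls were lost without some single libraries. Nor was the fall of other cells' markers limited to these groups. In siCebpa the Kupffer cell and cholangiocyte medians were -1.20 and -0.91, with 0 of either list called in edgeR and 3 of each lower with the block.

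**Figure D3:**
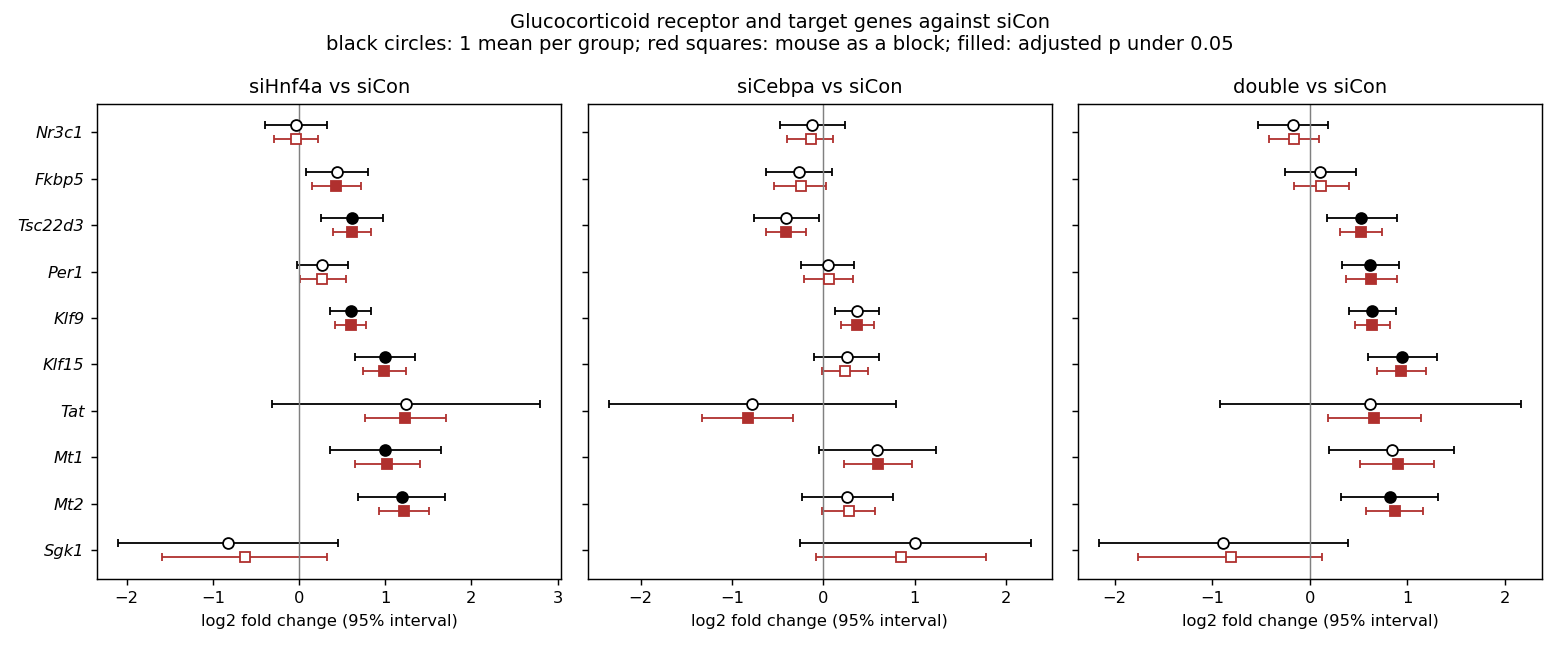
Log2 fold change against siCon with 95% intervals for the 10 genes in siHnf4a, siCebpa and the double knockdown; black circles are the fit with 1 mean per group, red squares the fit with the mouse as a block, and filled symbols passed at an adjusted p under 0.05. The estimates of the 2 fits lie close together, and the intervals of Tat are much shorter with the block.

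Klf15 and Klf9 kept their calls against siCon in both groups given Hnf4a siRNA under all 21 alternatives. Both are Krüppel-like zinc finger factors; KLF15 is known for amino acid breakdown and glucose production in fasting, and KLF9 for relaying hormone signals. Klf15 (ENSMUSG00000030087.11, chromosome 6, 90462576 to 90475238, plus strand) was at 9.48, 9.07 and 9.65 CPM in siCon and at 21.0, 18.6 and 16.7 CPM in siHnf4a. In siCebpa it was at 14.0, 10.5 and 9.25 CPM and in the double knockdown at 21.0, 16.7 and 16.8 CPM. All 6 libraries given Hnf4a siRNA lay above all 6 others, and siCebpa overlapped with siCon. Klf15 rose by 1.00 ± 0.16 log2 units in siHnf4a (adjusted p = 0.00251, edgeR) and by 0.95 ± 0.16 in the double knockdown (adjusted p = 0.0031). Its change in siCebpa was 0.26 ± 0.16 (adjusted p = 0.411). Over the 21 alternatives the values ran from 0.86 to 1.08 in siHnf4a and from 0.81 to 1.02 in the double knockdown. In the order of group means the step between the double knockdown and siCebpa passed the test, and siHnf4a was not told apart from the double knockdown nor siCebpa from siCon.

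Klf9 (ENSMUSG00000033863.2, chromosome 19, 23141226 to 23168134, plus strand) was at 66.3, 58.2 and 57.0 CPM in siCon, and at 95.2, 99.4 and 80.9 CPM in siHnf4a. It stood at 90.5, 73.0 and 71.8 CPM in siCebpa and at 96.4, 94.1 and 92.1 CPM in the double knockdown. Every knockdown library was above every siCon library. Klf9 rose by 0.60 ± 0.11 log2 units in siHnf4a (adjusted p = 0.00503) and by 0.64 ± 0.11 in the double knockdown (adjusted p = 0.00342, both edgeR). The value in siCebpa, 0.37 ± 0.11, missed the threshold (adjusted p = 0.082) but passed with the mouse as a block (0.37 ± 0.08, adjusted p = 0.0114) and in DESeq2 (0.36, adjusted p = 0.0428). Over all its alternatives the adjusted p in siCebpa ran from 0.0114 to 0.505. Neither neighbouring pair among the 3 knockdown groups differed past the test.

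Per1, a repressor of the circadian clock that glucocorticoids are known to induce quickly, differed from the Krüppel-like factors in its call. On chromosome 11 (ENSMUSG00000020893.17, 69095217 to 69109960, plus strand), it was at 64.4, 87.4 and 65.6 CPM in siCon and at 76.6, 93.3 and 93.2 CPM in siHnf4a. In siCebpa the values were 76.2, 74.8 and 74.3 CPM, and in the double knockdown 105, 102 and 128 CPM. The 3 double knockdown libraries stood above all 9 others, and siHnf4a and siCebpa each overlapped with siCon. Per1 rose by 0.62 ± 0.13 log2 units in the double knockdown (adjusted p = 0.0109, edgeR), and its values were 0.27 ± 0.13 in siHnf4a (adjusted p = 0.201) and 0.05 ± 0.13 in siCebpa (adjusted p = 0.877). Without siCon of mouse 3 the double knockdown call was lost (0.56, adjusted p = 0.0517), and adjusted p-values ran from 0.000338 to 0.0539 over the alternatives. The double knockdown was 0.35 ± 0.13 above siHnf4a, with an edgeR p of 0.0235 before adjustment and an adjusted p of 1.

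Tsc22d3 and Fkbp5 are feedback genes of the receptor. Tsc22d3 encodes GILZ, an anti-inflammatory leucine zipper protein, and Fkbp5 a co-chaperone that lowers the receptor's affinity for hormone. Tsc22d3 (ENSMUSG00000031431.13, chromosome X, 140539528 to 140600659, minus strand) was at 26.8, 32.3 and 35.5 CPM in siCon and at 44.3, 46.6 and 53.7 CPM in siHnf4a. In siCebpa it was at 24.4, 19.8 and 27.3 CPM and in the double knockdown at 41.8, 39.7 and 55.7 CPM. The libraries given Hnf4a siRNA lay above all siCon libraries, and siCebpa libraries lay low but overlapped with siCon. Tsc22d3 rose by 0.61 ± 0.16 log2 units in siHnf4a (adjusted p = 0.0285) and by 0.53 ± 0.16 in the double knockdown (adjusted p = 0.0496), both in edgeR. In siCebpa the change was -0.41 ± 0.16 (adjusted p = 0.189), and with the mouse as a block -0.41 ± 0.10 (adjusted p = 0.0196), lower in 3 of 3 mice.

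The call of Tsc22d3 was lost in the most alternatives of the 5 calls in the double knockdown, 15 of 21, with adjusted p from 0.00259 to 0.166. Among them were the removal of any 1 siCon, siHnf4a or double knockdown library and of siCebpa of mouse 1 (adjusted p from 0.0503 to 0.166). In siHnf4a the call was lost in 5 alternatives. These were the fit on TPM without a filter (adjusted p = 0.0885) and the fits without siCon of mouse 1 (0.0787) or 2 (0.0793) or without siHnf4a of mouse 2 (0.0692) or 3 (0.0916), where all 21 ran from 0.00106 to 0.0916. With the mouse as a block, which no other alternative used, both calls were kept. The block values were 0.61 ± 0.10 in siHnf4a (adjusted p = 0.00106, edgeR) and 0.53 ± 0.10 in the double knockdown (0.00259), higher in 3 of 3 mice each.

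Fkbp5 (ENSMUSG00000024222.17, chromosome 17, 28399094 to 28517527, minus strand) was at 49.2, 73.3 and 60.6 CPM in siCon and at 80.4, 102 and 65.7 CPM in siHnf4a. Values in siCebpa were 53.8, 50.5 and 47.8 CPM, and in the double knockdown 62.8, 69.4 and 65.6 CPM. All siHnf4a libraries and all double knockdown libraries were above all siCebpa libraries, and each knockdown group overlapped with siCon. The change in siHnf4a was 0.44 ± 0.16 (adjusted p = 0.101, edgeR), and with the mouse as a block 0.43 ± 0.13 (adjusted p = 0.0255), higher in 3 of 3 mice. It also passed without siHnf4a of mouse 3 (0.58, adjusted p = 0.0432), and the adjusted p ran from 0.0255 to 0.35 over the alternatives. In siCebpa the value was -0.27 ± 0.16 (adjusted p = 0.4) and in the double knockdown 0.11 ± 0.16 (adjusted p = 0.71).

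Tat encodes tyrosine aminotransferase, the first enzyme of tyrosine breakdown and a classical glucocorticoid-induced liver gene. For Tat (ENSMUSG00000001670.13, chromosome 8, 109990437 to 109999803, plus strand) siCon gave 27.9, 21.3 and 7.19 CPM, and siHnf4a 44.9, 72.5 and 15.8 CPM. The siCebpa libraries gave 18.3, 11.3 and 3.23 CPM and the double knockdown libraries 37.7, 36.7 and 12.5 CPM. Mouse 3 was the lowest in all 4 groups, and the highest mouse of a group was 3.02 to 5.67 times the lowest, so that all groups overlapped. Within each mouse the order was the same: siHnf4a above the double knockdown, then siCon, then siCebpa. The log2 ratio to siCon was 0.69, 1.77 and 1.14 in siHnf4a of mice 1, 2 and 3, and -0.61, -0.91 and -1.15 in siCebpa. Without the block no comparison of Tat with siCon passed: 1.24 ± 0.71 in siHnf4a (adjusted p = 0.281), -0.78 ± 0.71 in siCebpa (adjusted p = 0.603) and 0.62 ± 0.70 in the double knockdown (adjusted p = 0.611, edgeR). With the mouse as a block all 3 passed: Tat rose by 1.23 ± 0.21 in siHnf4a (adjusted p = 0.00177), fell by 0.83 on the log2 scale in siCebpa (SE 0.23, adjusted p = 0.0302) and rose by 0.66 ± 0.22 in the double knockdown (adjusted p = 0.0399). Over the other alternatives, none of which held a term for the mouse, the adjusted p reached 0.636, 0.855 and 0.899. Those fits count the differences between mice as spread, so they cannot decide whether the calls with the block hold.

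**Figure D4:**
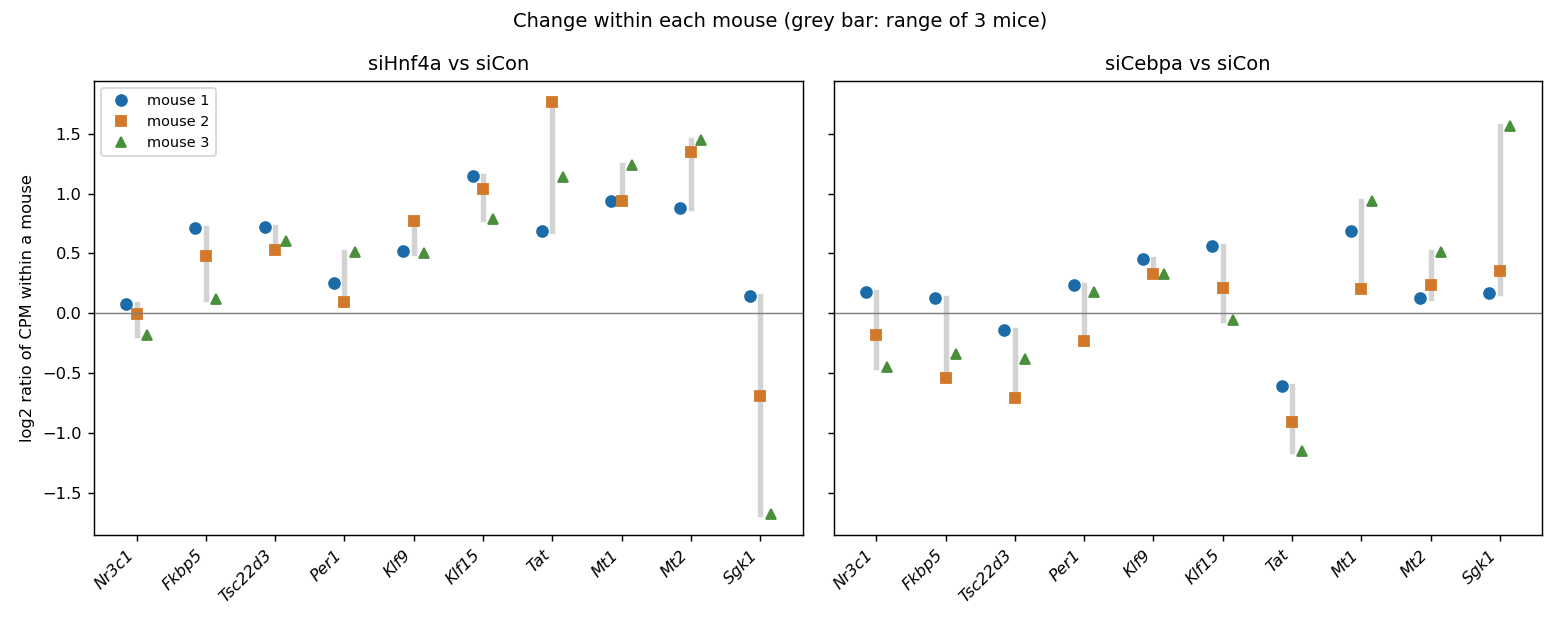
Log2 ratio of CPM to siCon of the same mouse for the 10 genes, in siHnf4a (left) and siCebpa (right); symbols tell the 3 mice apart and grey bars span their range. In all 3 mice Tat lies above 0 in siHnf4a and below 0 in siCebpa, and Sgk1 of mouse 3 lies far from the other mice in both panels.

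The metallothioneins Mt1 and Mt2 are small proteins that bind zinc and copper and are induced by both metals and glucocorticoids. The genes neighbour each other on chromosome 8, with Mt2 (ENSMUSG00000031762.7) at 94172664 to 94173568 and Mt1 (ENSMUSG00000031765.8) at 94179082 to 94180327, both on the plus strand, and their promoters are printed above. Mt2 was at 660.5, 487 and 338 CPM in siCon and at 1216, 1242 and 925 CPM in siHnf4a. In siCebpa it was at 723, 577 and 481 CPM, and in the double knockdown at 917, 872 and 839 CPM. The siHnf4a libraries were above all others, the double knockdown libraries came next without overlap, and siCebpa overlapped with siCon. Mt2 rose by 1.19 ± 0.23 log2 units in siHnf4a (adjusted p = 0.00668) and by 0.82 ± 0.23 in the double knockdown (adjusted p = 0.0345, both edgeR), with 0.26 ± 0.23 in siCebpa (adjusted p = 0.575). Mt2 shares 432 exon bases with the antisense gene Gm45774, which averaged 198 estimated counts against 18647 for Mt2.

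Mt1 gave 385, 341 and 190.0 CPM in siCon and 737, 652 and 448 CPM in siHnf4a. The siCebpa libraries were at 619.5, 391 and 365 CPM and the double knockdown libraries at 645, 457 and 541 CPM. Both groups given Hnf4a siRNA lay above all siCon libraries, and siCebpa overlapped with siCon. Mt1 rose by 1.00 ± 0.29 in siHnf4a (adjusted p = 0.042, edgeR). Values in siCebpa (0.59 ± 0.29, adjusted p = 0.286) and in the double knockdown (0.84 ± 0.29, adjusted p = 0.0797) passed with the mouse as a block, at 0.60 ± 0.17 (adjusted p = 0.035) and 0.90 ± 0.17 (adjusted p = 0.00285), and DESeq2 also called the latter (0.85, adjusted p = 0.0222, of 0.00285 to 0.23 over the alternatives). All 3 mice had more Mt1 and more Mt2 than their own siCon library under each siRNA.

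The rise of Mt1 in siHnf4a was lost in 10 of 21 alternatives. These included the fit on TPM without a filter (adjusted p = 0.123) and the fit of the 2 groups alone (0.065). Leaving out siCon of mouse 2 or 3, siHnf4a of mouse 1 or 2, siCebpa of mouse 2 or any 1 double knockdown library also ended it (0.051 to 0.132), where all 21 alternatives ran from 0.0013 to 0.132. The rise of Mt2 in the double knockdown was lost in 9 of 21. Besides TPM without a filter (0.116) and the 2 groups alone (0.0598), it was lost without siCon of mouse 2 or 3, siHnf4a or siCebpa of mouse 2, or any 1 double knockdown library (0.053 to 0.111), with 0.00077 to 0.116 over all 21. The rise of Mt2 in siHnf4a was kept in all 21. With the mouse as a block, which no other alternative used, the 2 rises lost elsewhere were kept. They were 1.02 ± 0.17 for Mt1 in siHnf4a (adjusted p = 0.0013, edgeR) and 0.87 ± 0.13 for Mt2 in the double knockdown (0.00077).

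Sgk1 encodes a serum- and glucocorticoid-regulated kinase that acts on ion channels and transporters. Sgk1 (ENSMUSG00000019970.15, chromosome 10, 21882184 to 21999903, plus strand) had 24.2, 54.9 and 64.0 CPM in siCon and 26.6, 34.0 and 20.0 CPM in siHnf4a. It was at 27.3, 69.7 and 190.1 CPM in siCebpa and at 18.6, 27.0 and 31.7 CPM in the double knockdown. Mouse 3 was the highest in siCon, siCebpa and the double knockdown, the siCebpa libraries spread 6.96-fold, and all groups overlapped. No comparison against siCon passed: -0.83 ± 0.58 in siHnf4a (adjusted p = 0.384), 1.00 ± 0.57 in siCebpa (adjusted p = 0.363) and -0.89 ± 0.58 in the double knockdown (adjusted p = 0.352, edgeR). Markers of other cells also differed between mice. Summed cholangiocyte markers were lowest in mouse 1 and highest in mouse 3 in all 4 groups (79.1, 204 and 269 CPM in siCon of mice 1, 2 and 3, and 35.1, 106 and 125 CPM in siCebpa), as Sgk1 was in siCon, siCebpa and the double knockdown. In siHnf4a, by contrast, mouse 3 had the highest cholangiocyte sum (166 CPM) and the lowest Sgk1 (20.0 CPM). Between groups the 2 also went apart: siCebpa had lower cholangiocyte sums than siCon but a higher Sgk1 mean (95.7 against 47.7 CPM). Endothelial and stellate sums were also lowest in mouse 1 in all 4 groups, and Kupffer cell sums highest in mouse 1. The part of these cells in the Sgk1 values was not tested.

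Direct comparisons between the knockdown groups asked how the 2 siRNAs differ. Between siHnf4a and siCebpa 4 of the 10 genes were higher in siHnf4a and none lower, with 16.2% of all genes called and 31.2% with the block. Tsc22d3 was 1.02 ± 0.16 log2 units higher in siHnf4a (adjusted p = 0.00245), Mt2 0.93 ± 0.23 (0.0194), Klf15 0.74 ± 0.16 (0.0109) and Fkbp5 0.71 ± 0.16 (0.0153), all by edgeR and each in 3 of 3 mice. With the mouse as a block Tat was also higher in siHnf4a, by 2.06 ± 0.23 (adjusted p = 0.000127, against 2.02 ± 0.73 and 0.0846 without), and Sgk1 lower, at -1.48 ± 0.44 (adjusted p = 0.0272, against -1.83 ± 0.59 and 0.057). Tat also passed in DESeq2 (2.03, 0.0473) and edgeR without a filter (2.02, 0.0438), as Sgk1 did (-1.81, 0.0252 and -1.81, 0.0222). The Sgk1 log2 ratios were -0.03, -1.04 and -3.25 in mice 1, 2 and 3. Over the alternatives adjusted p ran from 0.000127 to 0.283 for Tat and from 0.00892 to 0.404 for Sgk1. The call of Fkbp5 was lost without siHnf4a of mouse 2 (0.0606) or siCebpa of mouse 3 (0.0592), of adjusted p-values from 0.000785 to 0.0606 in all. That of Mt2 was lost without siHnf4a of mouse 1 or 2 or siCebpa of mouse 2 or 3 (0.0564 to 0.077, in all 0.000532 to 0.077), and that of Klf15 with the 2 groups alone (0.0556, in all 0.000472 to 0.0556). Tsc22d3 kept its call in all 21 alternatives. The count fell to 2 without siHnf4a of mouse 2 or siCebpa of mouse 3, where calls over all genes fell from 2442 to 1131 and 1358.

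Between the double knockdown and siCebpa, that is with Hnf4a siRNA added to Cebpa siRNA, 3 of the 10 genes were higher and none lower, with 13.0% of all genes called and 27.3% with the block. Tsc22d3 was higher by 0.94 ± 0.16 (adjusted p = 0.00418), Klf15 by 0.69 ± 0.16 (0.0173) and Per1 by 0.57 ± 0.13 (0.0181, all edgeR). The block fit counted 6 higher and 1 lower, with Tat (1.49 ± 0.22, adjusted p = 0.000869), Mt2 (0.59 ± 0.13, 0.00796), Klf9 (0.27 ± 0.08, 0.0295) and, lower, Sgk1 (-1.66 ± 0.44, 0.0174). The Sgk1 log2 ratios were -0.55, -1.37 and -2.58 in mice 1, 2 and 3. Sgk1 also passed in DESeq2 (-1.87, 0.0226) and edgeR without a filter (-1.87, 0.021), with adjusted p from 0.0102 to 0.415 over the alternatives. Without siCebpa of mouse 1 the count was 5, and without siCebpa of mouse 2 or of mouse 3 it was 1, Tsc22d3 in both cases. Calls over all genes were 2126, 1200 and 1068 in these 3 fits, against 1959 with all libraries. Klf15 was lost without siCebpa of mouse 2 or 3 and without the double knockdown of mouse 1 (0.0632 to 0.0677). Per1 was lost without siCebpa of mouse 2 or 3 and without the double knockdown of mouse 3 (0.0526 to 0.0626). Over all 21 alternatives adjusted p-values reached 0.0303 for Tsc22d3, 0.091 for Klf15 and 0.0626 for Per1.

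With Cebpa siRNA added to Hnf4a siRNA, that is between the double knockdown and siHnf4a, 0 of the 10 genes passed in edgeR, in DESeq2 or with the block. An unadjusted edgeR p under 0.05 was found for 1 gene, Per1, without the block, and for 4 with it: Per1 (0.0127), Tat (0.0205), Mt2 (0.0232) and Fkbp5 (0.0325), with adjusted p from 0.497 to 0.604. In that comparison 0.00663% of all tested genes, 1 gene, was called. All 95% intervals except those of Tat (-2.15 to 0.91) and Sgk1 (-1.33 to 1.21) lay within 0.86 log2 units of 0. The interaction term, the change in the double knockdown minus the sum of the changes with each siRNA alone, was past the threshold for 0 of the 10 genes in edgeR, in DESeq2 and with the block. Before adjustment, 0 had a p under 0.05 in edgeR without the block, and 4 with it: Mt2 (0.00618), Mt1 (0.0112), Klf9 (0.0148) and Tsc22d3 (0.0419), with adjusted p from 0.0883 to 0.233. It was called for 0.0861% of all genes, or 3.82% with the block. The medians of the 10 genes were -0.11 and -0.18 in these 2 comparisons, against 0.01 and -0.01 for all genes. The interaction values with the lowest adjusted p were -0.34 ± 0.15 for Klf9 (adjusted p = 0.507), -0.63 ± 0.32 for Mt2 (0.564) and -0.75 ± 0.41 for Mt1 (0.602), negative in 3 of 3 mice each.

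Other genes of the glucocorticoid pathway and of each gene's family were read from 10 lists. The shares of all tested genes called, against which each list count is to be read, were 14.5% (siHnf4a), 4.67% (siCebpa) and 14.0% (double knockdown), or 30.0%, 16.8% and 29.5% with the mouse as a block. Block counts below are given as higher and lower, in that order of groups. Calls over all genes also moved with 1 library left out, and the left-out counts below are to be read against them. They ran from 1120 to 2450 in siHnf4a, from 114 to 796 in siCebpa and from 1210 to 2405 in the double knockdown. The lowest were without siCon of mouse 2 (siHnf4a and double knockdown) or of mouse 3 (siCebpa). Of 31 tested among 32 other glucocorticoid-induced liver genes, 3 rose and 1 fell in siHnf4a, 1 rose and 1 fell in siCebpa, and 1 rose and 3 fell in the double knockdown, with median log2 fold changes of 0.08, -0.17 and 0.07. The called shares of this list, 12.9%, 6.45% and 12.9%, lay near those of all genes. Block counts were 6 and 5, 2 and 3, and 4 and 6. With 1 library left out 3 to 5, 0 to 2 and 3 to 5 were called, with 0 in siCebpa without siCon or siCebpa of mouse 2 or 3. Tdo2, the tryptophan-degrading dioxygenase, rose in siHnf4a by 1.94 ± 0.34 (adjusted p = 0.00377), from 9.40, 12.3 and 15.4 CPM to 51.5, 62.6 and 28.3 CPM. Txnip, a thioredoxin-binding brake on glucose uptake, rose in siHnf4a (1.19 ± 0.23, adjusted p = 0.00647) and fell in siCebpa (-0.95 ± 0.23, 0.0431, lost in 12 of 21 alternatives, with 11 of 12 single libraries left out, up to 0.16). Gadd45b, a stress-induced signalling gene, fell in siHnf4a (-1.40 ± 0.24, 0.00333) and in the double knockdown (-1.59 ± 0.24, 0.0016). Bcl6, a transcriptional repressor, rose in siHnf4a (0.40 ± 0.09, 0.0138, lost without siCon of mouse 2 or 3) and in the double knockdown (0.45 ± 0.09, 0.00816). The other calls were Cebpd, higher in siCebpa (0.76 ± 0.15, 0.0223), and Angptl4 (-1.28 ± 0.31, 0.018) and Nr1i2 (-1.16 ± 0.25, 0.0116), lower in the double knockdown. Cebpd was lost without siCon or siCebpa of mouse 2 or 3, and Angptl4 without siCon of mouse 2 or 3 or the double knockdown of mouse 3 (up to 0.138 and 0.0922 over the alternatives).

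Of 18 genes listed as chaperones and co-chaperones, 4 rose with siHnf4a, 6 with siCebpa and 3 with both siRNAs, and none fell. The block fit gave 5 higher and 1 lower, 9 and 0, and 5 and 1, and the medians were 0.16, 0.25 and 0.16. The called shares were 22.2%, 33.3% and 16.7%. These counts moved when 1 library was left out, in fits without the mouse as a block. In siCebpa 0 of the 18 were called without siCon of mouse 2, without siCon of mouse 3 or without siCebpa of mouse 3. In siHnf4a 1 was called without siCon of mouse 2 or siHnf4a of mouse 2 or 3, and in the double knockdown 2 to 4 over the left-out libraries. Calls over all genes fell in the same fits, in siCebpa from 704 to 117, 114 and 154. In siHnf4a they fell from 2193 to 1120, 1137 and 1489. The HSP90 genes of the cytoplasm, Hsp90aa1 and Hsp90ab1, were not called against siCon in edgeR without the block. Hsp90aa1 averaged 758, 581, 838 and 599 CPM in siCon, siHnf4a, siCebpa and the double knockdown, and Hsp90ab1 1936, 1895, 2179 and 1981 CPM. Hsp90b1 is the HSP90 of the endoplasmic reticulum, not of the cytoplasm where the receptor waits. It rose in siHnf4a (0.96 ± 0.12, adjusted p = 0.000589), siCebpa (0.66 ± 0.12, 0.016) and the double knockdown (1.01 ± 0.12, 0.000441). Its siCebpa call was lost without siCon of mouse 2 or 3 or siCebpa of mouse 3 (up to 0.0976 over its 21 alternatives). Hspa1a, an inducible HSP70, rose by 1.70 ± 0.41 in siHnf4a (0.0189), by 2.10 ± 0.41 in siCebpa (0.0208) and by 2.53 ± 0.41 in the double knockdown (0.00266), from a low 1.63 to 2.38 CPM in siCon. Reads of Hspa1a and its near-identical copy Hspa1b could be split between them, so the level of each is uncertain. The Hspa1a calls in siHnf4a and siCebpa were lost in 5 and 6 of 21 alternatives (up to 0.127 and 0.158), and in both without siCon of mouse 2.

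Of 11 tested among 14 genes of steroid metabolism, transport and related receptors, 2 rose and 2 fell in siHnf4a, 0 passed in siCebpa, and 1 rose and 2 fell in the double knockdown (medians 0.16, -0.30 and -0.09). For siCebpa 3 of them had an unadjusted p under 0.05 in edgeR, DESeq2 called 0 and the block fit called 2 lower. Block counts in the other groups were 3 and 2 in siHnf4a and 1 and 2 in the double knockdown, and both counts fell to 1 gene without siCon of mouse 2. Nr3c2, the mineralocorticoid receptor, which also binds glucocorticoids, rose in siHnf4a (0.78 ± 0.19, adjusted p = 0.0232) and the double knockdown (0.76 ± 0.19, 0.0249). Nr3c2 levels were 4.76 to 7.27 CPM in siCon, 8.97 to 11.1 CPM in siHnf4a and 8.66 to 11.3 CPM in the double knockdown, and both calls were lost without siCon of mouse 1 or 2, without siHnf4a of mouse 1 or 3 and without the double knockdown of mouse 1 or 3, each for its own comparison (up to 0.149 and 0.105 over the alternatives). Cyp3a25, a steroid-hydroxylating cytochrome of the liver, was low throughout, at 1.19 to 1.77 CPM in siCon, and fell in siHnf4a to 0.239, 0.206 and 0.0 CPM (adjusted p = 0.00694) and in the double knockdown to 0.0, 0.0 and 0.043 CPM (0.00109). Of 21 receptor coregulators, 4 fell in siHnf4a and the same 4 genes fell in the double knockdown (Ep300, Nrip1, Carm1 and Trim28), 19.0% of the list in each, and none rose. With the block 1 rose and 8 fell in siHnf4a, and 2 rose and 7 fell in the double knockdown. Without siCon of mouse 3 only 1 of the 21 was called in each of these groups, and in siHnf4a also without siCon of mouse 2. In siCebpa 0 passed in edgeR, where 4 had an unadjusted p under 0.05, DESeq2 called 3 and the block fit called 5 lower. Trim28 fell by 0.58 in siHnf4a (SE 0.11, adjusted p = 0.00661) and by 0.52 in the double knockdown (SE 0.11, 0.0115). Trim28 kept both calls with any 1 library left out, while the other 3 lost theirs in at least 1 such fit, Carm1 in the double knockdown in 10 of 12.

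Among 15 tested of 17 genes of zinc handling, 1 rose and 1 fell with siHnf4a, 1 and 1 with siCebpa, and 2 and 2 with both siRNAs. Block counts were 3 and 3, 3 and 1, and 2 and 3. With 1 library left out 2 to 4, 0 to 2 and 2 to 4 were called, with 0 in siCebpa without siCon of mouse 2 or 3 or siCebpa of mouse 3, and 2 with both siRNAs without siCon of mouse 3 or the double knockdown of mouse 1 or 2. Mtf1, the zinc-sensing factor that binds metal response elements, was at 42.3, 48.8 and 48.9 CPM in siCon, at 67.6, 78.3 and 79.3 CPM in siHnf4a, at 41.0, 50.3 and 43.8 CPM in siCebpa and at 77.7, 86.9 and 76.8 CPM in the double knockdown. Both groups given Hnf4a siRNA lay above all other libraries. Mtf1 rose by 0.69 ± 0.10 in siHnf4a (adjusted p = 0.00162) and by 0.79 ± 0.10 in the double knockdown (0.000708), and its value in siCebpa was -0.05 ± 0.10 (0.833). The zinc transporter gene Slc30a9 fell by 0.42 in siHnf4a (SE 0.08, 0.00531) and by 0.45 in the double knockdown (SE 0.08, 0.00332), and Slc30a4 fell by 0.91 in siCebpa (SE 0.16, 0.0124, lost without siCon of mouse 2 or 3 or siCebpa of mouse 3). Of 9 genes of tyrosine and phenylalanine breakdown other than Tat, 1 rose and 1 fell in siHnf4a, 1 fell in siCebpa and 1 fell in the double knockdown. Block counts were 2 and 1, 3 and 1, and 2 and 3. Hgd, the homogentisate dioxygenase further down the tyrosine pathway, fell under each siRNA: the values were -1.05 ± 0.20 for siHnf4a (0.00559), -0.98 ± 0.20 for siCebpa (0.0223, lost without siCon or siCebpa of mouse 2 or 3) and -2.06 ± 0.20 for both (0.000132).

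Of 11 tested among 15 other Krüppel-like factors, none rose and 2 fell in siHnf4a, none rose and 2 fell in siCebpa, and 1 rose and 2 fell in the double knockdown (medians -0.20, -0.29 and -0.11). Block counts were 2 and 2, 0 and 5, and 2 and 4. The calls in siCebpa were lost without siCon of mouse 2 or 3 or siCebpa of mouse 3, and the double knockdown count was 1 without siCon of mouse 2 or 3 or the double knockdown of mouse 3. Klf11 fell against siCon in all 3, by 0.80, 0.81 and 0.74 (SE 0.16 each, adjusted p = 0.00727, 0.0203 and 0.0108). The siCebpa call of Klf11 was lost without siCon of mouse 2 or 3 or siCebpa of mouse 3, and the double knockdown call without siCon of mouse 2. Klf4 rose by 1.27 ± 0.31 in the double knockdown (0.0216, lost without siCon of mouse 2 or 3 or the double knockdown of mouse 3). Among 17 relatives of Tsc22d3, Sgk1 and Fkbp5, Sgk3, a kinase related to Sgk1, was 25.4 to 28.1 CPM in siCon, 40.0 to 44.5 CPM in siHnf4a, 9.07 to 13.5 CPM in siCebpa and 39.4 to 41.1 CPM in the double knockdown. Sgk3 rose in siHnf4a (0.67 ± 0.13, adjusted p = 0.00692) and the double knockdown (0.58 ± 0.13, 0.0136) and fell in siCebpa (-1.18 ± 0.13, 0.00175). In that list 1 gene rose and 0 fell in siHnf4a, 1 and 2 in siCebpa, and 1 and 2 in the double knockdown. Block counts were 3 and 1, 2 and 2, and 2 and 3. The count was 1 in siCebpa without siCon of mouse 2 or 3 or siCebpa of mouse 3, and in the double knockdown without siCon of mouse 2.

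Of 16 clock partners of Per1, 2 rose and 2 fell in siHnf4a, and 1 rose and 1 fell in each of siCebpa and the double knockdown. Block counts were 4 and 3, 2 and 2, and 3 and 2, and without siCon of mouse 3 the count in siHnf4a was 0. Cry2, a repressor that pairs with PER proteins, rose in siHnf4a (0.37 ± 0.10, adjusted p = 0.0301), siCebpa (0.39 ± 0.10, 0.0498) and the double knockdown (0.55 ± 0.10, 0.00441). The first of these Cry2 calls was lost without siCon of mouse 2 or 3 or any 1 siHnf4a library, and the second without any 1 of the 12 libraries (up to 0.181 and 0.606 over the alternatives). Arntl, the gene of the clock activator BMAL1, rose by 0.42 ± 0.09 in siHnf4a (0.0113, lost without siCon of mouse 3). Npas2, a partner of BMAL1, fell by 1.19 in siCebpa (SE 0.12, adjusted p = 0.00112). Bhlhe40, a clock repressor, fell by 0.84 in siHnf4a (SE 0.20, 0.0167, lost without siCon of mouse 2 or 3 or siHnf4a of mouse 1 or 2) and by 0.92 in the double knockdown (SE 0.20, 0.0105). Of 14 tested among 15 inflammatory genes that glucocorticoids are known to repress, 1 fell in siHnf4a, 0 passed in siCebpa, and 1 rose and 1 fell in the double knockdown. For siCebpa 2 had an unadjusted p under 0.05 in edgeR, and DESeq2 called 1. Block counts were 1 and 2, 1 and 2, and 1 and 1. Csf1, the macrophage growth factor, fell by 1.30 (SE 0.19, 0.00146) and by 1.32 (SE 0.19, 0.00128). Cxcl10, an interferon-induced chemokine, rose by 2.15 ± 0.53 in the double knockdown (0.0213, lost without siCon of mouse 1 or 2 or the double knockdown of mouse 2 or 3).

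Over the 12 libraries, log2 CPM of the 10 genes was also compared pair by pair and with all genes above a mean of 10 CPM. These correlations describe 12 libraries that share 3 mice and 4 groups. Each nearest gene below was picked as the highest r among all those genes, and no background of r was computed. A high r was found for every one of the 10, also for Nr3c1, so it does not set a pair apart. The closest pairs were Klf9 and Klf15 (Pearson r = 0.906), Mt1 and Mt2 (0.904) and Klf9 and Mt1 (0.899), and the most opposed was Tat and Sgk1 (-0.753). Nr3c1 had r = 0.603 with Tat, 0.294 with Mt1, 0.289 with Fkbp5, 0.249 with Mt2, 0.174 with Klf15 and 0.116 with Klf9. With Tsc22d3, Per1 and Sgk1 its r was -0.0947, -0.247 and -0.533. The gene most like Klf15 was Map1lc3a (0.974), that most like Klf9 Creg1 (0.973, followed by Hsp90b1 at 0.969), and that most like Tsc22d3 Rab3d (0.987). For Tat it was Arg1 (0.967), the arginase of the urea cycle, and for Mt2 Optn (0.969), with Mt1 nearest to D10Jhu81e (0.954) and then Optn (0.93). Nr3c1 was nearest to Lrg1 (0.918), Fkbp5 to Apof (0.923), Per1 to Epg5 (0.923) and Sgk1 to Gm9973 (0.958).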

How the data were processed

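The 12 cultures (3 mice, 4 siRNA groups) gave TRIzol-extracted RNA, read on a BGISEQ-500, per the labels' protocols. Per the submitters' processing notes the tools were Trim Galore 0.6.4 and kallisto 0.4.6 with GRCm38.p6; their annotation and strand setting were not stated. The authors deposited, for each library, 1 file of estimated counts (expected counts per gene, not whole numbers) and 1 file of TPM (transcript levels corrected for length and library total). Gene identifiers were matched to GENCODE M21 (55144 of 55385, with 54487 at the same version).

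Estimated counts were rounded and tested in R 4.3.3 with the quasi-likelihood test of edgeR 4.0.16: filterByExpr kept 15090 genes, TMM factors were 0.947 to 1.038, each group had 1 mean over all 12 libraries, and two-sided p-values, adjusted with the Benjamini-Hochberg method across the tested genes, were called at 0.05. Standard errors come from the fold change and the F statistic, and CPM in the text use the TMM factors. The scripts were tested on simulated data. Totals of 22453445 to 25008195 counts put every member at 73 counts or more in each library. Alternatives were DESeq2 1.42.0, other size factors, filters, library sets, left-out libraries, limma 3.58.1 on log2 TPM with pseudocounts of 1 and 0.1, and the mouse as a block. None but the last held a term for the mouse, and leaving out a library also left the mice unbalanced between groups.

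Replicate numbers name the mouse in the series' design text, and samples of 1 number come from the same animal. Deviations from the group means correlated at 0.156 to 0.684 over the 18 same-mouse pairs. Among the libraries of the other groups, 12 of 12 libraries correlated best with one of their own mouse. Fits with the mouse as a block are given where they change a call of the 10 genes, for some calls lost in other alternatives, and as counts for the lists. The 10 genes, the lists and the markers were chosen with earlier results of these data known. Named list genes are those called against siCon with the largest changes, at most 3 per list and comparison; those named beyond this (Bcl6, Ep300, Cry2 and the called gene of a short count) were chosen after their values were seen. Promoters of 9 of the 10 genes matched the RefSeq table by symbol.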

Additional observations from a re-analysis of the deposited data

Results flagged for a closer look

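Cebpa, the target of 1 of the siRNAs and not a glucocorticoid gene, differed in its response between backgrounds. Against siCon it fell by 2.68 on the log2 scale with its siRNA alone (SE 0.13, edgeR adjusted p = 7.05e-06), and against siHnf4a it fell by 1.19 when both siRNAs were given (SE 0.12, adjusted p = 0.0188). The test of that difference, the interaction term, was 1.5 ± 0.18 log2 units (adjusted p = 0.0131), and 1.49, 1.60 and 1.39 in mice 1, 2 and 3. No gene passed for this term without siCon of mouse 2 or 3, siHnf4a of mouse 1 or 2, or the double knockdown of mouse 1 or 2. Cebpa stood at 30.0 ± 3.81 CPM in siCebpa and at 94.2 ± 13.1 CPM in the double knockdown (SD, n = 3), and the values of the 10 glucocorticoid genes in these groups were measured at those levels.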

How the results depend on the processing

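Of 1460 values of the 10 genes over comparisons and alternatives, 1337 kept direction and side of the threshold, 55 lost a call, 31 gained one and 37 changed sign, none of the last in a called value. The fit with the mouse as a replicate block moved the count of called genes among the 10 to 4 in siCebpa against siCon and to 7 between the double knockdown and siCebpa. DESeq2 called 1 in siCebpa. TPM without a filter gave 3 in siHnf4a and 2 in the double knockdown, and the fit of the 2 groups alone 3 in the double knockdown. Leaving out 1 library at a time gave 3 to 5 in siHnf4a, 2 to 5 in the double knockdown, 1 to 5 between the double knockdown and siCebpa and 2 to 6 between siHnf4a and siCebpa. The cause of these moves was not tested, beyond the fewer libraries in the left-out fits.

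All sign changes were in values that missed the threshold. On TPM with a pseudocount of 1, of 0.1 and without a filter, Nr3c1 was 0.09, 0.10 and 0.09 between the double knockdown and siCebpa and 0.14, 0.15 and 0.14 in the interaction term (0.02 with the replicate block), Fkbp5 was 0.05, 0.05 and 0.05 in the interaction term, and Per1 was -0.10, -0.11 and -0.10 in siCebpa. Left-out libraries took Nr3c1 from -0.13 to 0.08 in siHnf4a, -0.34 to 0.05 in siCebpa, -0.22 to 0.17 between the double knockdown and siCebpa, -0.08 to 0.32 between siHnf4a and siCebpa and -0.19 to 0.20 in the interaction. They took Fkbp5 from -0.02 to 0.26 in the double knockdown and -0.20 to 0.13 in the interaction, Per1 from -0.03 to 0.19 in siCebpa and Tat from -0.27 to 0.75 in the interaction. Between the double knockdown and siHnf4a they took Tsc22d3 from -0.24 to 0.02, Klf9 from -0.05 to 0.09, Klf15 from -0.18 to 0.04 and Sgk1 from -0.24 to 0.14.

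Over all genes, the block moved the calls from 2193 to 4533 in siHnf4a, 704 to 2542 in siCebpa, 2117 to 4448 in the double knockdown, 1959 to 4121 between the double knockdown and siCebpa, 2442 to 4712 between siHnf4a and siCebpa and 13 to 576 in the interaction. For siCebpa, DESeq2 called 1326, the 2 groups alone 45, no filter 398 and TPM 441, 440 and 248; DESeq2 called 235 in the interaction and 4 between the double knockdown and siHnf4a. TPM without a filter called 1054 in siHnf4a, 1076 in the double knockdown, 1114 between the double knockdown and siCebpa and 1400 between siHnf4a and siCebpa, and the 2 groups alone called 841 and 1322 in the last 2. TPM with a pseudocount of 0.1 moved the median of all genes from about 0 to -0.135 in siCebpa and 0.128 in the interaction. The block changed no call of the 10 genes other than those given. With 3 mice and no library without dexamethasone, small changes and the hormone response itself are out of reach.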
